A study of Saccharomyces cerevisiae with 25 samples.

Results

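The hypoxic and anaerobic genes of budding yeast (Saccharomyces cerevisiae) are genes whose transcription is repressed while oxygen and heme are present. Probe sets annotated to 10 such genes (DAN1, TIR1, TIR2, TIR3, TIR4, ANB1, AAC3, COX5B, CYC7 and HEM13) were followed through all 14 groups of the series, out of 5656 genes measured. The genes were chosen by their log2 values in exponential phase, where several of them differed between deletion strains and wild type. The values of that phase are therefore given as a description with no test, and the 10 genes are tested only among the arrays taken after glucose depletion. Each of the 10 genes had 1 probe set, and none of these sets carried a name ending that marks a shared or family set.

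Total RNA was measured on 25 Affymetrix arrays, 1 per sample. The strains lacked, by their labels, 1 subunit gene of the Ccr4-Not complex each. These were caf1 (gene POP2), caf130, ccr4, not2 (gene CDC36), not3, not4 (gene MOT2) and not5 null strains, set against a wild-type strain. The 11 depletion arrays, taken 30 min after glucose ran out, were 1 of caf1 and 2 each of caf130, ccr4, not2, not4 and wild type. The 14 exponential-phase arrays, from cultures in glucose-rich medium, were 1 each of not4 and not5 and 2 each of caf1, caf130, ccr4, not2, not3 and wild type. With 1 array each, not4 and not5 in exponential phase and caf1 after depletion take their spread from the other groups. The labels state that samples were prepared independently, and they name neither the strain background nor the oxygen supply of the cultures.

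In air, heme activates the transcription factor Hap1, which switches on the repressor gene ROX1, and Rox1 shuts off hypoxic genes together with the corepressors Tup1 and Cyc8. The DAN and TIR genes encode serine-rich mannoproteins that replace other wall proteins when oxygen is missing. They are further held down by Mot3 and switched on by the sterol sensor Upc2. ANB1, AAC3, COX5B and CYC7 encode the low-oxygen forms of proteins for which yeast keeps a separate aerobic gene. HEM13 encodes coproporphyrinogen oxidase, an enzyme of heme synthesis that itself needs oxygen. Ccr4-Not works both in transcription and in mRNA decay, where Ccr4 and Caf1 remove poly(A) tails, and its subunit Not4 is a ubiquitin ligase.

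Log2 values had array medians of 5.20 to 5.37 and lower quartiles of 3.51 to 3.85. Of the 250 readings of the 10 genes, 4 lay below the lower quartile of their array, all of them CYC7 in exponential phase. The transcript of the deleted gene was below every wild-type array in 6 of the 7 strains, at 2.25 to 5.03 against 4.46 to 8.42 in wild type. The exception was CAF130, which read 5.63 to 6.60 on the 4 arrays labelled caf130, against 5.30 to 5.76 in wild type. These arrays are called caf130-labelled here, since the transcript goes against the label. A reading at or below 5.03 lies in the range read where the gene is deleted, so a difference from such a reading may understate the change. TRP1 is a tryptophan synthesis gene often used as a strain marker. It read 6.73 to 8.89 on the caf1 and ccr4 arrays, against 2.64 to 3.14 in wild type. On the caf130-labelled arrays it read 3.59 and 5.52 in exponential phase, and 7.27 and 7.69 after depletion. Whether these arrays hold the same strain in both conditions was not tested, so their responses to depletion are given by label. The part of TRP1 in the differences of these 3 strains from wild type was not tested.

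The level of each wild-type exponential array was checked first, because every exponential difference rests on this pair. The median of the 10 genes' differences from the median of the other 12 exponential arrays was 0.89 for the first wild-type array and 0.80 for the second. AAC3 read at most 7.52 on the deletion strains' exponential arrays, against 8.01 and 7.68 in wild type. ANB1 read at most 10.38 on them, against 10.47 and 10.49 in wild type, so wild type was highest for both. For DAN1 and TIR1 the wild-type arrays took ranks 2 and 3 of the 14. All 4 genes thus stood above the median of all probe sets on both wild-type arrays. Their percentiles among the genes of these arrays ran from 78.8 (AAC3, array 2) to 99.6 (TIR1, array 1), with DAN1 at 85.2 and 85.0. The 2 wild-type arrays differed from each other by a median of 0.30 over the 10 genes, against 0.24 over all genes, and 8 of the 10 lay within 0.5. The widest gap was in CYC7, at 3.58 and 5.35, so the wild-type mean of CYC7 lies between 2 distant readings.

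**Figure D1:**
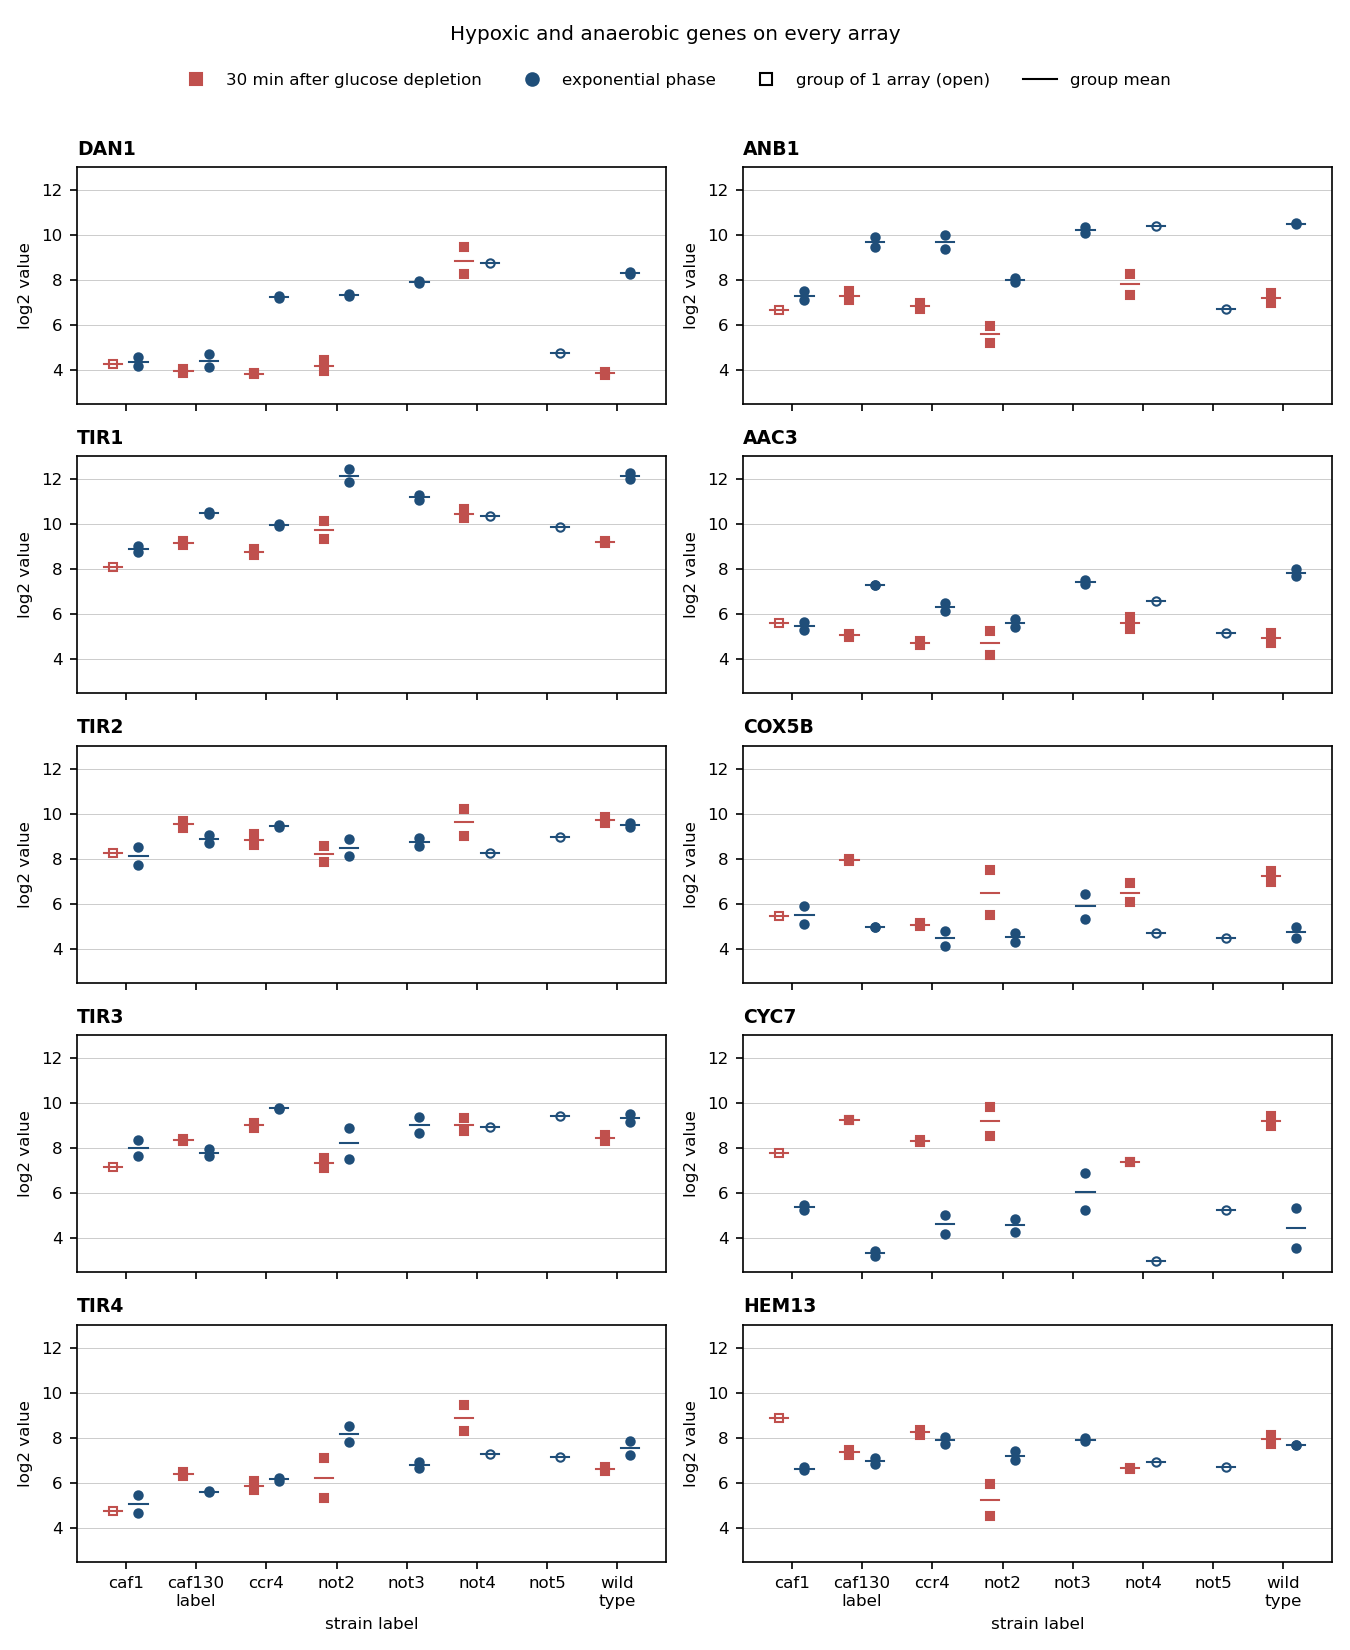
Log2 value of each of the 10 genes on every array, by strain label, with red squares for 30 min after glucose depletion left of blue circles for exponential phase, bars for group means and open symbols for groups of 1 array. DAN1 after depletion stands at 9.44 and 8.26 in not4, against 3.79 and 3.91 in wild type, and CYC7 is higher after depletion than in exponential phase in every strain that has both.

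In exponential phase, most of the genes read lower in the deletion strains than in wild type, and the genes furthest from wild type differed by strain. In caf1, DAN1 differed from wild type by -3.96 ± 0.33 (SE), TIR1 by -3.23 ± 0.28, ANB1 by -3.19 ± 0.34 and AAC3 by -2.35 ± 0.33. In not5, ANB1 was furthest at -3.80 ± 0.41, with DAN1 at -3.58 ± 0.40, AAC3 at -2.68 ± 0.40 and TIR1 at -2.26 ± 0.34. In not2, ANB1 and AAC3 differed by -2.49 and -2.23, while TIR1 was at 0.01 and TIR4 at 0.61. In ccr4, TIR1, AAC3 and TIR4 were furthest below, at -2.18, -1.52 and -1.39. On the caf130-labelled arrays DAN1 differed by -3.91 and TIR4 by -1.94. In not4, TIR1 was at -1.78 while DAN1 was at 0.41. In not3, TIR1 was at -0.96, and COX5B was above wild type. The not3 mean of CYC7 was also higher, but its arrays overlapped, at 6.91 and 5.24 against 3.58 and 5.35 in wild type. These differences chose the genes and are not tested.

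The median difference of the 10 genes from wild type was -1.87 in caf1, -0.96 on the caf130-labelled arrays, -0.53 in ccr4, -0.74 in not2, -0.36 in not3, -0.57 in not4 and -0.74 in not5. The medians of all genes lay between -0.12 and 0.17. The not2 median moved to -0.43 without not2 array 2, and the not3 median to -0.23 without not3 array 2.

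**Figure D2:**
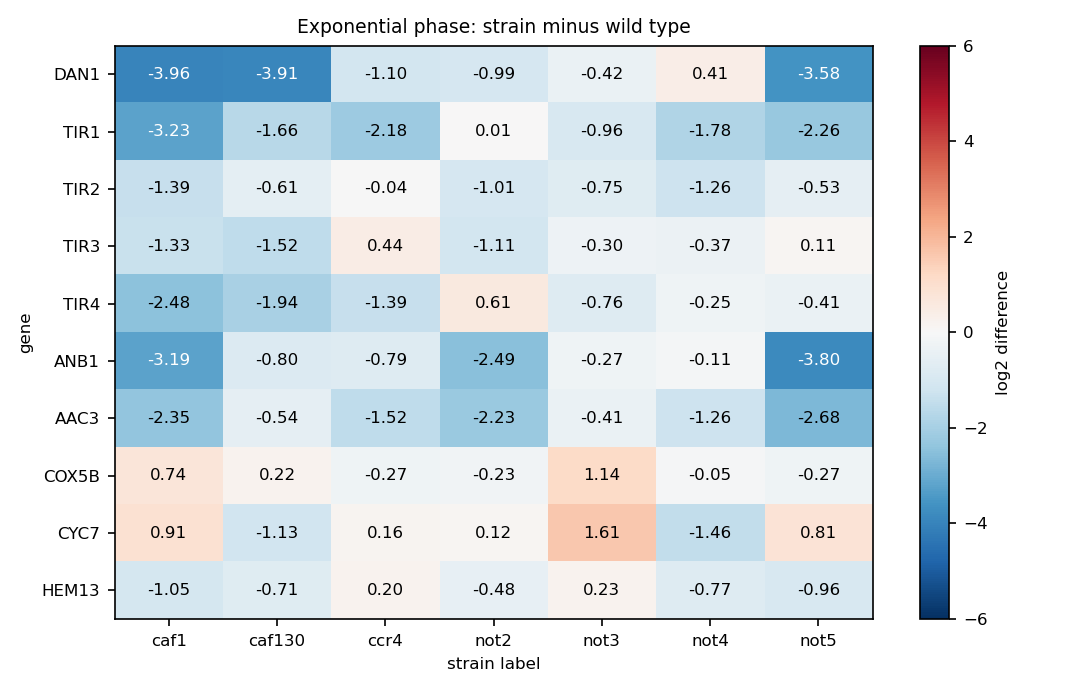
Log2 difference of each gene in exponential phase, deletion strain minus wild type, as a coloured grid with the value printed in each cell (blue for lower, red for higher). DAN1 is lowest in caf1 at -3.96, on the caf130-labelled arrays at -3.91 and in not5 at -3.58. The mean differences of COX5B and CYC7 in not3 are 1.14 and 1.61, and the CYC7 arrays of not3 and wild type overlap.

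In wild type, DAN1, ANB1, TIR1 and AAC3 read lower after glucose depletion than in exponential phase, and CYC7 and COX5B read higher. The difference of depletion from exponential phase in wild type was -4.47 ± 0.33 (SE) for DAN1, -3.28 ± 0.34 for ANB1, -2.95 ± 0.28 for TIR1 and -2.91 ± 0.33 for AAC3. CYC7 and COX5B went the other way, by 4.73 ± 0.52 and 2.47 ± 0.49. TIR2, TIR3, TIR4 and HEM13 differed less, by 0.22, -0.87, -0.94 and 0.25. The direction of CYC7 was the same in all 6 strains, from 2.41 ± 0.64 in caf1 to 5.89 ± 0.52 on the caf130-labelled arrays. ANB1 read lower after depletion in all 6 strains, from -3.28 in wild type to -0.65 in caf1, where its level was already low in exponential phase.

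The response of DAN1 set the strains apart. It was -3.38 in ccr4, -3.14 in not2 and -4.47 in wild type, but -0.10 in caf1 and -0.47 on the caf130-labelled arrays, where the exponential level was near 4.4. In not4 it was 0.12, and there the level was near 8.8 in both conditions. HEM13 also differed between strains, with a response of 2.25 in caf1 and -1.96 in not2, against 0.25 in wild type. TIR2 and TIR4 responded by 1.37 and 1.60 in not4, against 0.22 and -0.94 in wild type. These responses use the exponential arrays that chose the genes, and each strain's response is a description.

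**Figure D3:**
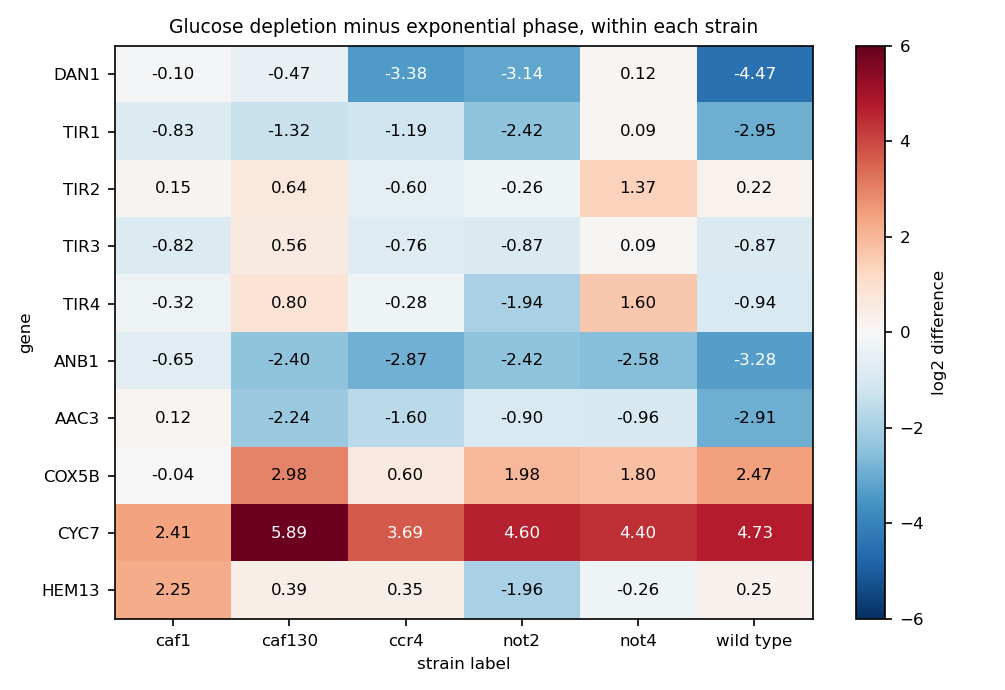
Log2 difference of each gene, depletion minus exponential phase, within each of the 6 strains that have both, as a coloured grid with the value in each cell (blue for lower after depletion, red for higher). CYC7 is higher in every column, from 2.41 in caf1 to 5.89 on the caf130-labelled arrays, and DAN1 ranges from 0.12 in not4 to -4.47 in wild type.

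After glucose depletion, the number of the 10 genes called against wild type differed by strain, as did the share of all genes called. A gene is called, and said to rise or fall, when its Benjamini-Hochberg adjusted p over the 5656 genes is under 0.05 in one limma fit of all arrays. The SE and p-value use the spread of the gene pooled over all groups. Both can thus be too small where the arrays compared lie further apart. In not4, 3 of the 10 genes rose (DAN1, TIR1 and TIR4) and 2 fell (CYC7 and HEM13), beside 5.92% of all genes called higher and 6.22% called lower. In not2, 4 fell (ANB1, TIR2, TIR3 and HEM13) and none rose, beside 28.0% of all genes called in either direction, of which 792 of the 5656 were called lower. In caf1, 3 fell (TIR1, TIR2 and TIR4) and none rose, beside 5.36% called lower. In ccr4, COX5B fell and none rose, beside 11.8% called lower, so the ccr4 count is near the share of all genes. On the caf130-labelled arrays none was called, beside 0.0354% in either direction, and none had an unadjusted p under 0.05 in the limma fit. The median difference of the 10 genes was 0.59 in not4, -0.56 in not2, -1.19 in caf1, -0.40 in ccr4 and 0.00 on the caf130-labelled arrays, and that of all genes lay between -0.06 and 0.09. The 5 comparisons share the 2 wild-type depletion arrays.

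Some of these counts rest on single arrays. The caf1 count fell to 0 without either wild-type depletion array and to 1 without either caf130-labelled depletion array. It was 5 without any 1 of the not2 or not4 depletion arrays. The ccr4 count was 2 without either not4 depletion array. The not2 count fell to 2 without wild-type depletion array 2. The not4 count fell to 3 without not4 array 1 or wild-type array 2, and to 2 without wild-type array 1. Of the 25 calls made in these 5 comparisons and in the 2 between deletion strains, 11 held under every alternative.

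**Figure D4:**
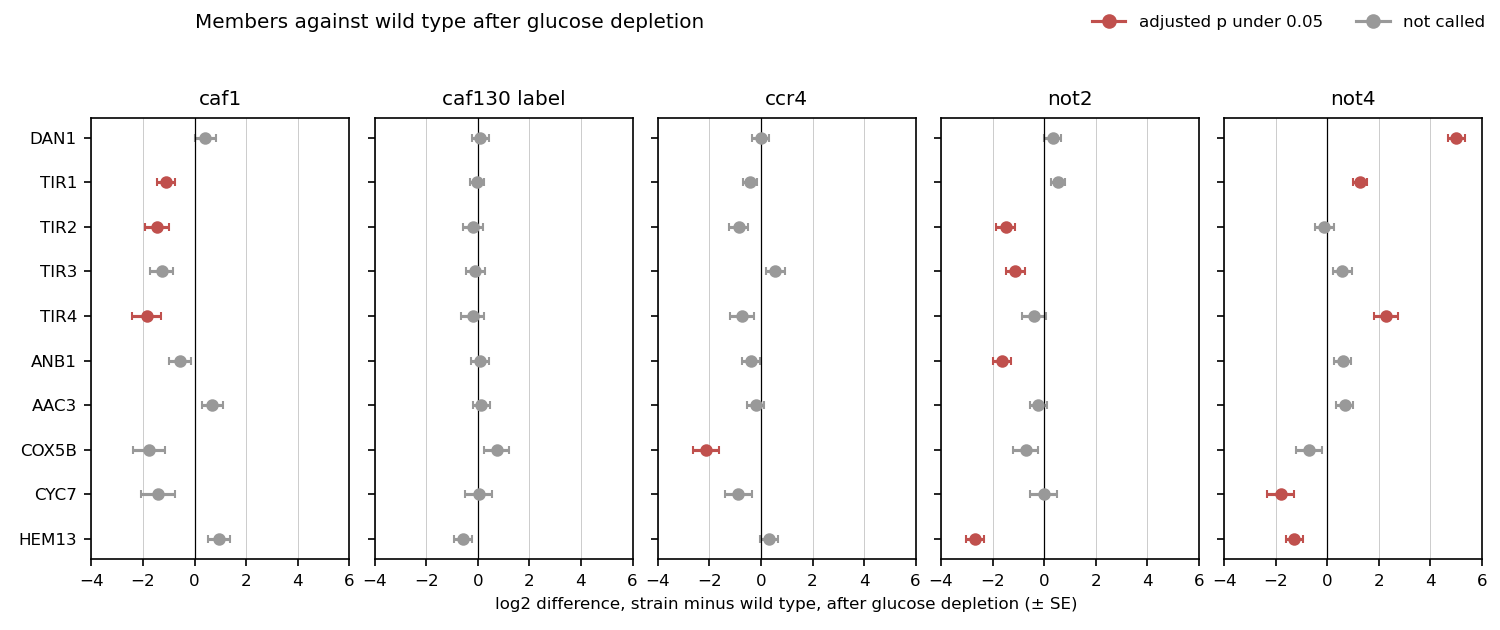
Log2 difference of each gene after glucose depletion, strain minus wild type, one panel per strain label, with points for the estimate, bars for 1 SE and red for adjusted p under 0.05. DAN1 in not4 lies at 5.0, TIR4 in not4 at 2.28 and HEM13 in not2 at -2.69, while no point is red on the caf130-labelled arrays.

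DAN1, a cell wall mannoprotein gene known to be silent in well-aerated yeast, had the widest range of the 10 genes among the depletion arrays. After depletion it read 9.44 and 8.26 in not4, against 3.79 and 3.91 in wild type. It read 4.26 in caf1, 3.85 and 4.04 on the caf130-labelled arrays, 3.87 and 3.81 in ccr4, and 3.94 and 4.43 in not2. Both not4 arrays thus stood far above the 9 other depletion arrays, which ran from 3.79 to 4.43. The difference of not4 from wild type was 5.0 ± 0.33 (limma, adjusted p = 1.07e-08). The wild-type readings lay in the range of deleted genes, so this difference may understate the change. This call held under every alternative, with differences of 4.42 to 5.59. No other strain was called for DAN1 after depletion, and the difference was 0.34 ± 0.33 in not2 (adjusted p = 0.48). Each array holds RNA of a whole culture, so more cells with the transcript and more transcript per cell cannot be told apart.

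In exponential phase DAN1 took 2 levels. It read 4.56 and 4.16 in caf1, 4.69 and 4.13 on the caf130-labelled arrays and 4.73 in not5, against 8.36 and 8.27 in wild type. It read 7.17 and 7.27 in ccr4, 7.26 and 7.38 in not2, 7.95 and 7.85 in not3, and 8.73 in not4. The 5 arrays of caf1, caf130-labelled and not5 thus ended at 4.73, and the other 9 exponential arrays began at 7.17. In the order of the 14 group means, both not4 groups came first and differed from each other by less than the pooled SD of 0.316. The wild-type, not3, not2 and ccr4 exponential groups followed, and not2 and ccr4 were not separated. The lowest groups, from caf130-labelled in exponential phase down to ccr4 after depletion, formed a run with no gap above the pooled SD between neighbours.

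TIR1, another wall mannoprotein gene and one induced by cold as well as by lack of oxygen, was the second DAN/TIR gene higher in not4 after depletion. It read 10.26 and 10.66 in not4, against 9.14 and 9.25 in wild type. The arrays did not overlap, and the difference was 1.26 ± 0.28 (limma, adjusted p = 0.00515). The call was lost without wild-type array 1 (adjusted p = 0.0555). In caf1 the 1 depletion array read 8.09, below both wild-type arrays, with a difference of -1.11 ± 0.34 (adjusted p = 0.0361). That call was lost without either wild-type array (adjusted p = 0.0832 and 0.168), without either caf130-labelled array (0.0506 each) and in a fit of the depletion arrays alone (0.107). In exponential phase TIR1 read 9.05 and 8.79 in caf1, 9.93 and 9.99 in ccr4, 9.88 in not5 and 10.36 in not4, against 12.28 and 12.00 in wild type. It read 10.43 and 10.53 on the caf130-labelled arrays, 11.30 and 11.07 in not3, and 12.45 and 11.86 in not2, so not2 alone overlapped wild type.

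TIR4, a mannoprotein gene required for growth without oxygen, followed DAN1 in not4. After depletion it read 8.31 and 9.47 in not4, against 6.52 and 6.69 in wild type. Both not4 arrays were above every other depletion array, of which the highest was not2 array 2 at 7.10. The difference was 2.28 ± 0.46, or 4.86 times higher (limma, adjusted p = 0.00276), and it held under every alternative, at 1.70 to 2.86. In caf1 the depletion array read 4.75, and the difference of -1.86 ± 0.56 was called (adjusted p = 0.0343). Without wild-type array 1 or 2 it was not called (adjusted p = 0.0809 and 0.159), nor in the fit of depletion arrays alone (0.107). The not2 arrays lay far apart, at 5.32 and 7.10, and their difference from wild type was -0.40 (adjusted p = 0.548). In exponential phase the gene read 5.47 and 4.66 in caf1 and 5.63 and 5.59 on the caf130-labelled arrays, against 7.84 and 7.25 in wild type, while not2 at 8.50 and 7.80 overlapped wild type.

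TIR2 and TIR3, the remaining wall mannoprotein genes, did not follow DAN1 in not4, where their differences from wild type after depletion were -0.11 (limma, adjusted p = 0.895) and 0.58 (adjusted p = 0.347). They fell in not2. TIR2 read 7.86 and 8.59 in not2, against 9.60 and 9.83 in wild type. The difference was -1.49 ± 0.37 (adjusted p = 0.00565), and it was not called without not2 array 1 (0.0619) or wild-type array 2 (0.0571). TIR3 read 7.11 and 7.56 in not2, against 8.32 and 8.59 in wild type. The difference was -1.12 ± 0.37 (adjusted p = 0.0301), and it was not called without not2 array 1 (0.151), wild-type array 1 (0.0745) or wild-type array 2 (0.176). For both genes the not2 and wild-type arrays did not overlap. TIR2 also fell in caf1, at 8.26 on its 1 array, by -1.46 ± 0.46 (adjusted p = 0.0416), a call lost under 11 alternatives with adjusted p up to 0.193.

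TIR2 and TIR3 varied less over the series than DAN1. In exponential phase TIR2 read 8.50 and 7.70 in caf1, against 9.41 and 9.58 in wild type, and the strain nearest to wild type was ccr4 at 9.42 and 9.47. TIR3 read 8.35 and 7.64 in caf1 and 7.65 and 7.96 on the caf130-labelled arrays, against 9.50 and 9.16 in wild type. For TIR3, ccr4 at 9.73 and 9.80 was above both wild-type arrays. In the order of group means, the first 5 groups of TIR2, from wild type after depletion to ccr4 in exponential phase, had no gap above the pooled SD of 0.421 between neighbours.

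ANB1 encodes the hypoxic form of translation factor eIF5A, and HYP2 the aerobic form. After depletion ANB1 read 5.21 and 5.94 in not2, against 7.42 and 6.99 in wild type. The not2 arrays were the lowest of all 25. The difference was -1.63 ± 0.34, or 3.09 times lower (limma, adjusted p = 0.00139), and it held under every alternative. The other strains were not called, with not4 at 8.27 and 7.33 and a difference of 0.60 (adjusted p = 0.277). In exponential phase ANB1 read 7.09 and 7.49 in caf1, 7.90 and 8.09 in not2 and 6.68 in not5, against 10.47 and 10.49 in wild type. These 5 arrays lay below the remaining exponential arrays, which began at 9.38 in ccr4. HYP2 stayed between 11.81 and 12.96 on all 25 arrays and was called in none of the 5 comparisons after depletion.

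AAC3 encodes the ADP/ATP carrier of the inner mitochondrial membrane made at low oxygen, and PET9 and AAC1 encode carriers used in air. AAC3 was not called in any strain against wild type after depletion. Its arrays read 5.62 in caf1, 4.99 and 5.14 on the caf130-labelled arrays, 4.65 and 4.81 in ccr4, 4.17 and 5.26 in not2, and 5.87 and 5.36 in not4, against 5.16 and 4.71 in wild type. The largest differences were 0.68 in caf1 and 0.68 in not4 (limma, adjusted p = 0.264 and 0.201). In exponential phase it read 5.32 and 5.67 in caf1, 5.80 and 5.43 in not2 and 5.16 in not5, against 8.01 and 7.68 in wild type. The ccr4 arrays lay between these levels, at 6.51 and 6.14, as did not4 at 6.58. The caf130-labelled arrays at 7.30 and 7.31 and the not3 arrays at 7.52 and 7.34 came nearest to wild type.

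COX5B encodes the hypoxic form of subunit V of cytochrome c oxidase, and COX5A the aerobic form. After depletion COX5B read 5.03 and 5.13 in ccr4, against 6.98 and 7.45 in wild type. The ccr4 arrays were the lowest of the depletion arrays. The difference was -2.13 ± 0.49, or 4.38 times lower (limma, adjusted p = 0.00386), and it held under every alternative. The caf1 array, at 5.44, differed by -1.77 ± 0.60 (adjusted p = 0.0576). The not2 arrays disagreed, at 7.50 and 5.50, with a difference of -0.71 (adjusted p = 0.298). The caf130-labelled arrays were the highest, at 7.99 and 7.91, and were not called. In exponential phase COX5B was low, from 4.14 in ccr4 to 6.43 in not3, and wild type read 4.50 and 4.99.

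CYC7 encodes iso-2-cytochrome c, the minor form of the electron carrier, and CYC1 the major aerobic form. After depletion CYC7 read 7.41 and 7.39 in not4, against 8.99 and 9.41 in wild type. The difference was -1.80 ± 0.52 (limma, adjusted p = 0.0292). The call was lost without not4 array 1 (adjusted p = 0.115), not4 array 2 (0.0546), wild-type array 1 (0.0927) or wild-type array 2 (0.211). The caf1 array at 7.78 and the ccr4 arrays at 8.36 and 8.29 also lay below wild type, but were not called. In not2 the arrays read 9.82 and 8.55 and enclosed the wild-type values. In exponential phase the readings ran from 3.01 in not4 to 6.91 in not3.

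HEM13, the heme synthesis gene, had its own order of strains. After depletion it read 4.53 and 5.95 in not2, against 8.12 and 7.73 in wild type. The not2 arrays were the lowest of all 25. The difference was -2.69 ± 0.34 (limma, adjusted p = 1.15e-05), and it held under every alternative. In not4 it read 6.67 and 6.63, with a difference of -1.28 ± 0.34 (adjusted p = 0.0181). That call was lost without not4 array 1 (adjusted p = 0.069) or either wild-type array (0.166 and 0.0617) and in the fit of depletion arrays alone (0.0947). The caf1 array read 8.87, the highest value of HEM13 in the series, but its difference of 0.95 ± 0.42 was not called (adjusted p = 0.134). In exponential phase HEM13 ranged from 6.57 in caf1 to 8.02 in ccr4, with wild type at 7.70 and 7.66.

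The not2 and not4 strains were compared with each other after depletion. Of the 10 genes, 6 were lower in not2 than in not4 (DAN1, TIR2, TIR3, TIR4, ANB1 and HEM13) and CYC7 was higher, beside 10.8% of all genes called lower and 11.9% called higher. DAN1 differed by -4.67 ± 0.33 (limma, adjusted p = 2.03e-08), from not2 readings that also lie in the range of deleted genes, TIR4 by -2.68 ± 0.46 (adjusted p = 0.000376), ANB1 by -2.23 ± 0.34 (adjusted p = 0.000129) and TIR3 by -1.70 ± 0.37 (adjusted p = 0.00277). These 4 calls held under every alternative. The count was 4 without not2 array 1. TIR2, CYC7 and HEM13 were then not called (adjusted p = 0.114, 0.202 and 0.104), and HEM13 differed by -0.70 in place of -1.41 and CYC7 by 1.15 in place of 1.79. TIR2 was also lost without not4 array 2, at -0.77 in place of -1.39 (adjusted p = 0.169), and CYC7 without not4 array 1 or 2 (0.0512 and 0.0607).

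Against ccr4 after depletion, not2 was lower in TIR3, ANB1 and HEM13 and higher in TIR1 and COX5B, beside 24.1% of all genes called lower and 20.4% called higher. HEM13 differed by -2.99 ± 0.34 (limma, adjusted p = 1.26e-06) and TIR3 by -1.67 ± 0.37 (adjusted p = 0.0012), and these calls held under every alternative. The count was 2 without ccr4 array 2. COX5B at 1.42 ± 0.49 was not called without either ccr4 array (adjusted p = 0.0983 and 0.0822), in the fit of depletion arrays alone (0.0557) or without not2 array 1, where it was 0.42 (0.474). TIR1, at 0.96 ± 0.28, was not called without ccr4 array 2 (0.0842) or not2 array 2, where it was 0.55 (0.136). ANB1, at -1.24 ± 0.34, was not called without ccr4 array 2 (0.0575) or not2 array 1 (0.0684). The counts of 3 and 2 of the 10 are close to these shares of all genes.

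Genes that rise when yeast runs out of glucose gave a measure of growth stage, since strains can differ in how far a culture has gone. The array median of 10 such genes (among them ADH2, ICL1, HSP12 and CTT1) was, after depletion, 7.85 in caf1, 9.57 and 9.29 on the caf130-labelled arrays, 6.37 and 6.0 in ccr4, 9.18 and 9.23 in not2, and 8.07 and 8.39 in not4, against 9.24 and 9.12 in wild type. In ccr4, 8 of the 10 were called lower, in caf1 2 were lower, in not4 3 were lower and 1 higher, and in not2 1 was lower and 1 higher. Of all genes, 11.8% were called lower in ccr4, 5.36% in caf1 and 6.22% in not4, where 5.92% were called higher. In not2, 28.0% were called in either direction. In exponential phase the median was 7.18 in not5 and 5.92 to 6.04 on both not2 arrays and 1 not3 array, against 4.96 and 5.0 in wild type. In caf1 it was 5.12 and 4.88, and there HSP12, HXK1 and HXT5 of this list differed from wild type by 3.16, 2.04 and 1.33. The wild-type arrays read 5.8 and 7.3 in HSP12 and 6.6 and 9.6 in HXK1, so these differences rest on distant wild-type readings. In HXT5 they were alike, at 5.07 and 5.06. The fall of COX5B in ccr4 and the falls of TIR1, TIR2 and TIR4 in caf1 thus came with a lower median of these indicators. So did the differences of DAN1, TIR1, TIR4, CYC7 and HEM13 in not4, where HXT5 was higher (10.60 and 10.19, against 9.23 and 8.80 in wild type). The falls of ANB1, TIR2, TIR3 and HEM13 in not2 came with a median near that of wild type, but single indicators differed both ways. In not2 HXT5 was higher still, at 11.21 and 11.83. ICL1 was lower there, at 7.22 and 8.33, against 9.50 and 9.21 in wild type. The low DAN1, ANB1 and AAC3 of not5 came with a higher median. The part of growth stage was not tested.

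The other DAN and PAU mannoprotein genes were represented by 11 of 27 genes. The median difference of the 11 in not4 after depletion was 0.77, beside -0.06 over all genes. Beside 5.92% of all genes called higher there, 4 of the 11 rose and none fell. They were PAU19 (1.51 ± 0.35, limma, adjusted p = 0.00746), PAU7 (1.51 ± 0.27, adjusted p = 0.00134), PAU15 (1.32 ± 0.32, adjusted p = 0.00968) and PAU3 (1.17 ± 0.34, adjusted p = 0.0283). The PAU probe sets are family sets, on which transcripts of near-identical PAU genes cannot be told apart. The array median of the 11 genes was 7.72 and 7.74 in not4 after depletion, against 6.69 and 6.54 in wild type. In exponential phase it was 8.37 in not4, against 6.48 and 6.53 in wild type. In not2 and on the caf130-labelled arrays after depletion none was called. In caf1, PAU3 and PAU13 fell (by -1.46 and -1.11), and in ccr4 DAN4, PAU7 and PAU4 fell (by -1.50, -0.91 and -0.82). DAN4, the chromosomal neighbour of DAN1, was not called in not4 after depletion, at 7.72 and 8.37 against 7.63 and 7.67 in wild type (difference 0.40, adjusted p = 0.676).

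AUS1 and PDR11 encode the transporters that take up sterols from the medium when sterols cannot be made for lack of oxygen. AUS1 read 7.32 and 6.93 in not4 after depletion, against 5.37 and 5.45 in wild type. It rose by 1.71 ± 0.30 (limma, adjusted p = 0.000925), and all 6 probe sets annotated to AUS1 had a higher mean in not4 than in wild type there. In exponential phase AUS1 read 7.52 in not4, against 6.30 and 6.06 in wild type, but only 1 of the 6 sets was higher. PDR11 read 6.26 and 6.74 in not4, against 5.79 and 5.66 in wild type, a difference of 0.78 that was not called (adjusted p = 0.19). In not2 after depletion AUS1 was 2.39 below not4 (-2.39 ± 0.30, adjusted p = 1.65e-05), and PDR11 differed by -1.64 ± 0.37 (adjusted p = 0.00342). In the order of genes in the R64 reference, AUS1 stands next to TIR2, which stands next to TIR4, and PDR11 is 2 places from TIR3. Of the 3 adjacent genes, TIR4 and AUS1 rose in not4 and TIR2, between them, was not called.

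Among 15 other hypoxic or sterol-uptake genes, AUS1 included, FRD1 fell in 4 of the 5 strains after depletion. FRD1 encodes a soluble fumarate reductase used without oxygen. Its difference from wild type was -3.76 ± 0.69 in caf1 (limma, adjusted p = 0.0024), -1.57 in ccr4, -1.84 in not2 and -2.11 in not4. In not4 1 of the 15 rose and 1 fell, near the shares of all genes (5.92% and 6.22%). In caf1 FRD1 was the 1 called, beside 5.36% of all genes called lower. In not2, 5 fell and none rose, beside 792 of the 5656 genes called lower. Among the 5 were NCP1, the electron donor of sterol synthesis (-2.10 ± 0.37), and SUR2, a sphingolipid hydroxylase (-2.0 ± 0.27). EUG1, a disulfide isomerase of the endoplasmic reticulum, fell by -1.88 ± 0.30. In ccr4, CYB5 and ERG3 rose (1.51 and 0.82) and FRD1 and FET4 fell, beside 11.8% of all genes called lower. On the caf130-labelled arrays none was called.

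The remaining heme genes did not follow HEM13 as a group. Of 8 measured, HEM1, the first enzyme of the pathway, fell in not2 by -2.32 ± 0.49 (limma, adjusted p = 0.00148) and in not4 by -1.56 ± 0.49 (adjusted p = 0.0404), both strains in which HEM13 fell. HEM14, which acts directly after HEM13, rose in not2 by 1.51 ± 0.28 (adjusted p = 0.000615). In ccr4, HEM1, HEM3 and HEM12 fell, by -1.44, -1.13 and -0.88, while HEM13 was not called. In caf1, HEM2 rose by 1.13. None was called on the caf130-labelled arrays. Of all genes, 28.0% were called in not2 in either direction, 11.8% lower in ccr4 and 6.22% lower in not4.

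The aerobic counterparts were set beside their low-oxygen partners. In wild type the median difference of depletion from exponential phase was 2.43 over the 5. CYC1 differed by 2.84 ± 0.43, AAC1 by 2.75 ± 0.26, COX5A by 2.43 ± 0.26 and PET9 by 1.0 ± 0.31. After depletion CYC1 read 6.78 and 6.66 in ccr4, 7.49 and 7.02 in not2 and 8.81 and 7.15 in not4, against 9.73 and 9.21 in wild type. All 3 strains fell, by -2.75 ± 0.43 (limma, adjusted p = 0.000192), -2.22 ± 0.43 (adjusted p = 0.000782) and -1.49 ± 0.43 (adjusted p = 0.0275). CYC1 and ANB1 are neighbours in the R64 gene order.

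AAC1 fell in the same 3 strains, by -2.24 ± 0.26 in ccr4 (limma, adjusted p = 1.3e-05), -1.49 ± 0.26 in not2 (adjusted p = 0.000365) and -1.11 ± 0.26 in not4 (adjusted p = 0.00923). PET9 fell in not2, where it read 9.49 and 9.24 against 10.74 and 10.72 in wild type (-1.37 ± 0.31, adjusted p = 0.00253). COX5A fell in not4, where it read 9.26 and 9.38 against 10.45 and 10.36 in wild type (-1.08 ± 0.26, adjusted p = 0.00989). No counterpart was called in caf1 or on the caf130-labelled arrays. Of the 5 counterparts, 2 fell in ccr4, 3 in not2 and 3 in not4, and none rose in these strains. Of all genes, 11.8% were called lower in ccr4 and 6.22% in not4. In not2, 28.0% were called in either direction, of which 792 of the 5656 were called lower. Thus in ccr4 COX5B and CYC1 fell while COX5A and CYC7 were not called, and in not4 CYC7 and CYC1 fell together.

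**Figure D5:**
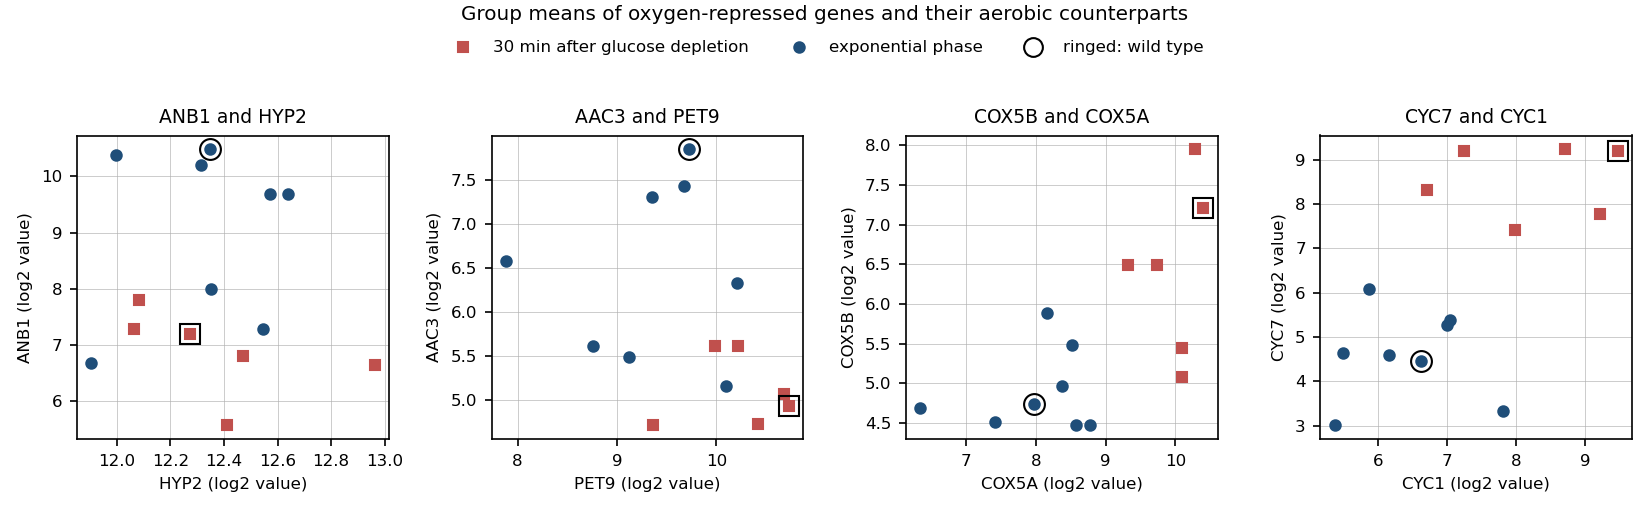
Mean log2 value of each group for 4 low-oxygen genes (vertical) against an aerobic counterpart (horizontal), with red squares for 30 min after depletion, blue circles for exponential phase and rings around wild type, each axis with its own range. COX5B and CYC7 stand higher on the right with COX5A and CYC1, whereas ANB1 spans 5.58 to 10.48 over HYP2 group means of 11.91 to 12.96.

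The regulators themselves were measured. ROX1, the repressor gene, read 6.44 in caf1, 6.48 and 6.08 on the caf130-labelled arrays, 5.32 and 5.03 in ccr4, 5.32 and 6.33 in not2, and 5.0 and 5.40 in not4 after depletion, against 6.14 and 6.06 in wild type. It was called in none of the 5, with the lowest adjusted p in ccr4 (-0.92 ± 0.36, limma, adjusted p = 0.0664) and a difference of -0.90 ± 0.36 in not4 (adjusted p = 0.116). UPC2, the activator gene of DAN and TIR genes, read 3.29 and 2.99 in ccr4, against 4.08 and 3.99 in wild type, and fell by -0.89 ± 0.29 (adjusted p = 0.0302). Both ccr4 readings were below the lower quartile of their arrays, so the size of this difference is uncertain. In not4 UPC2 differed by -0.03 ± 0.29 (adjusted p = 0.969). MOT3 read 2.35 to 3.28 over all arrays, below the lower quartile of each array, and was not called in the 5. HAP1 was read on a family set, ran from 6.58 to 8.74 and was not called in the 5 on that set. The HAP1 sets disagreed in ccr4 after depletion. A set without the family ending, which was not used, read 4.63 and 4.68 there, against 6.17 and 5.84 in wild type. On this set caf1 was also lower, at 5.19, and not2 was higher, at 6.98 and 6.79. On both family sets the ccr4 arrays were above the wild-type arrays. The differences on the unused set were not tested.

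Of 15 regulators in all, CYC8, the corepressor gene, rose in not4 by 1.52 ± 0.39 (limma, adjusted p = 0.0152), and HAP5, a subunit gene of the respiratory activator, fell by -1.25 ± 0.31 (adjusted p = 0.0121). In not2 HAP2 and SPT23 rose (1.10 and 0.91) and HAP3 fell (-1.75). In ccr4 CYC8 rose by 1.37, and HAP4 and UPC2 fell, by -1.61 and -0.89. None was called in caf1 or on the caf130-labelled arrays. Of all genes, 28.0% were called in not2 in either direction, so the not2 count of regulators is under that share. The shares were 5.92% higher and 6.22% lower in not4, and 11.8% lower in ccr4.

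How alike the genes were was measured by Pearson's r over the 14 group means, which is a description, since the groups share strains and the genes were chosen together. Of the 45 pairs, 6 had r above 0.7 and 4 had r below -0.5. ANB1 and AAC3 were the most alike, at 0.92. COX5B and CYC7 followed at 0.80, and DAN1 with TIR1, DAN1 with TIR4, TIR1 with TIR4 and DAN1 with ANB1 at 0.73, 0.72, 0.71 and 0.71. ANB1 and AAC3 ran against CYC7, at -0.74 and -0.71. TIR1 and TIR2 had an r of 0.15. Between low-oxygen genes and their aerobic partners, r was 0.66 for COX5B with COX5A, 0.65 for CYC7 with CYC1, -0.07 for ANB1 with HYP2, -0.35 for AAC3 with PET9 and -0.55 for AAC3 with AAC1.

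By the same measure the genes outside the list most like DAN1 were AUS1 (0.85), GCV2 (0.81) and YAL067W-A (0.78). The AUS1 value rests on the set used, the only 1 of its 6 sets that was higher in not4 than in wild type in exponential phase. TIR1 was most like UPC2 (0.82), SUM1 (0.81) and POP1 (0.81), TIR2 most like YCL042W (0.89), and TIR3 most like ADH1 (0.81). TIR4 had no gene above GCR1 (0.80). ANB1 was most like PMT5 (0.93) and AAC3 most like LEU9 (0.90), and PLB2 was among the 3 nearest genes of both (0.89 each). COX5B was most like OTU1 (0.93) and CYC7 most like TMA17, MPC3 and SOL4 (0.97 each). HEM13 was most like RPE1 (0.92), TDA4 (0.89) and COQ2 (0.89).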

How the data were processed

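Per the labels' protocols, RNA was extracted with acid phenol and labelled with biotin. The authors deposited 1 table of log2 values of 9275 probe sets. Its software, normalization and log base are not stated in the labels. The base was inferred from the range of the values (1.36 to 13.94). Values were used as deposited. Probe sets with 1 symbol (6504, against 328 with several and 2443 with none) were kept, with symbols updated to the R64 reference. For the 315 genes with several sets the set with the highest mean was taken.

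One mean per group was fitted with limma 3.58.1 in R 4.3.3 (eBayes, trended by intensity; the degrees of freedom were 11 residual and 9.03 prior), and p-values were adjusted by Benjamini-Hochberg over 5656 genes within a comparison. The fit was also run on simulated data in which a gene had the same spread in all groups. That run cannot show the effect of unequal spreads between groups. P-values measure differences against the spread between independently prepared samples, pooled over all groups into a single value per gene. That value is not the spread of the arrays compared, and precision is limited by the number of arrays. After depletion the SD of HEM13 was 1.01 in not2 and 0.28 in wild type, beside 0.34 in the fit. That of DAN1 was 0.83 in not4 and 0.09 in wild type, beside 0.33 in the fit. Summaries used Python 3.11.15 with numpy 2.4.6 and pandas 2.3.3, and plots matplotlib 3.10.9.

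The genes and the lists beside them were chosen with earlier results of these data known. All 10 genes were named, with the aerobic counterparts, ROX1, HAP1, MOT3 and UPC2, up to 4 called genes per list with the greatest change, and the 3 genes most alike. DAN4, PDR11 and the probe sets of AUS1 were added because of their position or values. Alternatives were quantile normalization, dim genes left out, the mean of all probe sets, no trend, 1 growth condition only, a replicate block and each array left out.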

Additional observations from a re-analysis of the deposited data

Results flagged for a closer look

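The 5 values here moved one way on every array of one group and the other way on every array of the other, and the difference between the 2 was not tested. The share of all genes that do so was not counted, so the 5 are listed only as values. DAN1 in not2 was 0.34 above wild type after depletion and -0.99 from it in exponential phase. Its depletion readings, 3.94 and 4.43 in not2 and 3.79 and 3.91 in wild type, lie in the range of deleted genes. The response of TIR2 to depletion was -0.60 in ccr4 and 0.22 in wild type. The wild-type TIR2 arrays were close, at 9.60 and 9.83 after depletion and 9.41 and 9.58 in exponential phase. On the caf130-labelled arrays the response of TIR3 was 0.56 and that of TIR4 was 0.80, against -0.87 and -0.94 in wild type. HEM13 responded by -1.96 in not2 and by 0.25 in wild type.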

How the results depend on the processing

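No call among depletion arrays changed direction under any alternative, but the median response in caf1, -0.07, was 0.02 without caf1 exponential array 1. Of the 25 calls among depletion arrays, 11 held under all alternatives. In a fit of 1 growth condition only, the caf1 count after depletion was 0 in place of 3. With each of 22 arrays left out in turn, the median exponential difference from wild type ran from -2.01 to -1.59 in caf1, -1.13 to -0.76 on the caf130-labelled arrays, -0.76 to -0.40 in ccr4, -0.85 to -0.43 in not2, -0.49 to -0.23 in not3, -0.57 to -0.52 in not4 and -0.85 to -0.74 in not5. The count called against wild type after depletion ran from 0 to 5 in caf1, 0 to 0 on the caf130-labelled arrays, 1 to 2 in ccr4, 2 to 5 in not2 and 2 to 5 in not4, that of not2 against ccr4 from 2 to 5 and that of not2 against not4 from 4 to 9. The median response ran from -0.27 to 0.02 in caf1, 0.32 to 0.50 on the caf130-labelled arrays, -0.86 to -0.49 in ccr4, -2.06 to -0.85 in not2, 0.11 to 0.34 in not4 and -1.14 to -0.67 in wild type. Some genes not called above were called without 1 array, among them TIR1 in not2 (0.94), TIR4 in not2 (-1.29) and ANB1 in not4 (1.07). Same-numbered arrays deviated together in some pairs of groups and in opposite directions in others. Over 55 pairs of groups r ran from -0.55 to 0.47, with a median of -0.02 and 14 above 0.1. The numbers were therefore not taken to pair samples, and whether arrays of different groups share a deviation under other numbers was not tested. With the replicate block, which leaves out the 3 groups of 1 array, the counts after depletion were 4 in not2, 5 in not4, 1 in ccr4 and 0 on the caf130-labelled arrays, as without it. Groups of 1 array, 2 wild-type arrays per condition, the unstated normalization, CYC7 readings near the lower quartile and the unsettled caf130 label limit the comparisons.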

Other observations

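In exponential phase the single not4 array read low in several genes of heme and respiration. Among 8 other heme genes, HEM1, HEM15 and HEM2 differed from wild type by -4.26, -2.24 and -1.21 on the log2 scale. HAP4, the activating subunit of the respiratory regulator, differed by -2.94, FRD1 by -3.97, PET9 by -1.85 and COX5A by -1.63. These genes were picked from their lists for the size of the difference. The median was -0.66 over the 8 heme genes and -1.25 over the 5 aerobic counterparts, beside 0.17 over all genes. AAC1 went the other way, at 7.45 in not4 against 6.99 and 7.17 in wild type. FET4, a low-affinity iron transporter gene, was above wild type in exponential phase by 1.54 in not4, 1.48 in not3 and 1.56 in not2. CYC8 differed from wild type in exponential phase on the caf130-labelled arrays (-1.89), in not2 (-1.63) and in not3 (-1.80). FRD1 read lower in caf1 too, by -2.04. These values share the wild-type exponential arrays and are given as a description with no test.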
